A study of Mus musculus with 53 samples.

Results

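The 10 genes examined here encode enzymes and a transporter of arginine, polyamine and amino acid metabolism: Slc7a2, Arg1, Arg2, Nos2, Ass1, Asl, Odc1, Srm, Sat1 and Il4i1. They were selected by gene name from the FPKM tables and make up 10 of the 23847 loci listed there, each name occurring once. Expression was measured by polyadenylated RNA-seq in bone marrow-derived macrophages (BMDMs) of WT and Stat6-/- mice aged 8 to 12 weeks, both on the C57BL/6 background. The Stat6-/- allele is a knockout of the whole body, so the cells lacked STAT6 also while they differentiated. Marrow cells grew for 6 days with L929 supernatant, a source of M-CSF, before some of them received IL-4 at 20 ng/ml during 1, 3, 6 or 24 h. Untreated controls were taken at the same times and at 0 h. The 53 samples formed 18 groups, with 4 WT samples in each group, except for 3 with IL-4 for 24 h, and 2 Stat6-/- samples in each group.

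Arginine is the substrate of competing enzymes in macrophages. It enters the cell through cationic amino acid transporters such as SLC7A2. Arginases split it into ornithine and urea, and the inducible nitric oxide synthase (NOS2) turns it into nitric oxide and citrulline. Argininosuccinate synthase and lyase (ASS1 and ASL) rebuild arginine from citrulline. Ornithine decarboxylase (ODC1) makes putrescine from ornithine, spermidine synthase (SRM) extends putrescine to spermidine, and spermidine/spermine acetyltransferase (SAT1) marks polyamines for export or breakdown. IL4I1 is a secreted oxidase of aromatic amino acids. Arg1 is a classic marker of macrophages polarized by IL-4, and Nos2 of macrophages activated by microbial products and interferon.

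Upstream sequence could be shown for the IL-4-responsive genes that the RefSeq promoter table held. The table (assembly GRCm38.p6) matched 4 of the 10 genes, Il4i1, Odc1, Sat1 and Ass1. The 250 bases before the annotated start are given 5′ to 3′ on the gene's strand for the 3 of them that responded to IL-4 in WT cells. Capitals mark matches, on either strand, to the GC box GGGCGG or the PU.1 core GAGGAA.
Il4i1 (chr7:44836038-44836287, plus strand): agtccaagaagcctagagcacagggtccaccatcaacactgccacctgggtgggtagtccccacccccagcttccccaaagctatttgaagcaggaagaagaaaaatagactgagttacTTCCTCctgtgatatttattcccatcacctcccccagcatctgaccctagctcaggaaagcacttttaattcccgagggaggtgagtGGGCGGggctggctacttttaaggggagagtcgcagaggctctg
Odc1 (chr12:17544623-17544872, plus strand): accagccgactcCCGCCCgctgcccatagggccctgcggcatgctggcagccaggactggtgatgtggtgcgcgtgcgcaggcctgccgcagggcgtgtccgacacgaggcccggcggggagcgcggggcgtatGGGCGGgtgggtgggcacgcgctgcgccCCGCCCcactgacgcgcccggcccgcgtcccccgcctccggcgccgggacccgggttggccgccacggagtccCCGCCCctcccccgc
Sat1 (chrX:155216450-155216699, minus strand): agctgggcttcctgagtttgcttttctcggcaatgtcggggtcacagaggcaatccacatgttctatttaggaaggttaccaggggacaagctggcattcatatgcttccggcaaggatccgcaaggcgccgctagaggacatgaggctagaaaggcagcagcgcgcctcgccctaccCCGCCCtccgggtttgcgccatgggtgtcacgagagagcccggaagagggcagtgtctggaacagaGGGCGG
The Il4i1 sequence held 1 GC box, at bases -44 to -39 from the start, and 1 PU.1 core, read on the opposite strand at -131 to -126. The Odc1 sequence, of which 80.0% was G or C, held 4 GC boxes, and that of Sat1 held 2. GC boxes occurred in 32.74% and the PU.1 core in 23.25% of the 32851 promoters in the table. The STAT palindrome, TTC and GAA separated by 3 or by 4 bases, was not matched in these 3 windows. Its 2 spacings occurred in 7.02% and 5.85% of all promoters. STAT6 binding was not measured in these tables, and distal sequence was not searched.

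Summed FPKM ran from 385889 to 464915 per sample, and sequencing depth recovered from the lowest loci ranged from 0.706 to 1.55 times that of the median sample. Stat6 stood between 58.7 and 90.6 FPKM in the 35 WT samples and between 14.3 and 24.0 FPKM in the 18 Stat6-/- samples, so RNA of the locus was lower but still present. Each of the 8 macrophage markers examined, among them Csf1r and Cd68, reached 1 FPKM, although the lysozyme gene Lyz2 was listed at 0 in 7 WT samples and at 10146 FPKM or more in every Stat6-/- sample. In WT with IL-4 for 24 h 5 of the 8 markers fell, Adgre1 (listed as Emr1), Csf1r, Fcgr1, Mertk and Aif1. All but Csf1r did so by more than 2-fold, and the median change of the 8 was -1.47. Of all loci 55% passed the test then, and 8.5% also changed by at least 2-fold. Lyz2 was not among the 5 markers that fell. Its samples with IL-4 for 24 h, at 4018 to 5444 FPKM, nevertheless all lay below their controls, at 18491 to 24241 FPKM. The log2 change of Cd68 was 0.16 ± 0.13 (limma, adjusted p = 0.282). In Stat6-/- cells none of the 8 passed. Their part in the 24 h values was not tested. The summed level of 6 granulocyte markers was 577.7 to 1060 FPKM in Stat6-/- samples, against 304.7 to 614 FPKM in WT controls and 220 to 528 FPKM in WT samples with IL-4. In untreated cells 3 of these 6 passed as higher in Stat6-/- at 0 h and at 1 h, and 2 did at 3 h. None passed at 6 or 24 h. The shares of all loci passing at 0, 1 and 3 h were 2.18%, 1.54% and 0.772%. In WT with IL-4 for 24 h 4 of the 6 granulocyte markers fell too, 2 of them by at least 2-fold, beside the 55% and 8.5% above. The part of the granulocyte markers in the differences between genotypes was not tested. None of the fibroblast, B cell or dendritic cell markers reached 1 FPKM, and single markers of T cells and eosinophils and 2 of mast cells and basophils did. The 4 T cell markers together were at 3.31 to 15.5 FPKM in WT controls, 0.738 to 4.98 FPKM in WT with IL-4 and 6.52 to 12.1 FPKM in Stat6-/- samples. In such bulk samples, fewer cells of a type and less RNA per cell cannot be told apart.

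Of the 10 genes, 9 were among the 11146 loci that reached 1 FPKM in at least 1 sample and were tested. Arg1 and Slc7a2 reached it only in WT cells with IL-4, and Nos2 never did. A gene is said to rise or fall where the adjusted p from the limma model was under 0.05, and to be called where the change was also at least 2-fold, on the log2(FPKM + 1) scale on which all log2 changes are given. In WT cells IL-4 raised Arg1, Slc7a2 and Il4i1 at every time point, Srm from 3 h, Odc1 from 6 h, Arg2 at 1 and 3 h and Sat1 at 3 and 6 h. Arg2 and Sat1 were below their controls at 24 h, and Asl and Ass1 did not pass the test at any time. At 1 h 3 of the 9 genes were called, against 1.49% of all tested loci, and 4 passed the test, against 9.39%. At 3 h 4 were called and 6 passed, beside 3.88% and 28.9% of the loci. At 6 h the counts were again 4 and 6, beside 5.54% and 41.2%. At 24 h 4 were called and 7 passed, of which 2 fell, beside 8.5% and 55% of the loci. The median change of the 9 genes was 0.32, 0.49, 0.70 and 0.70 at the 4 times, while that of all loci lay between -0.07 and 0.01. The p-values of Arg1 and Slc7a2, the median of the 9 genes and the counts that include Arg1 and Slc7a2 only describe the genes. This holds also for those between times and genotypes below. The reason is that Arg1 and Slc7a2 entered the test only through their treated WT samples.

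**Figure D1:**
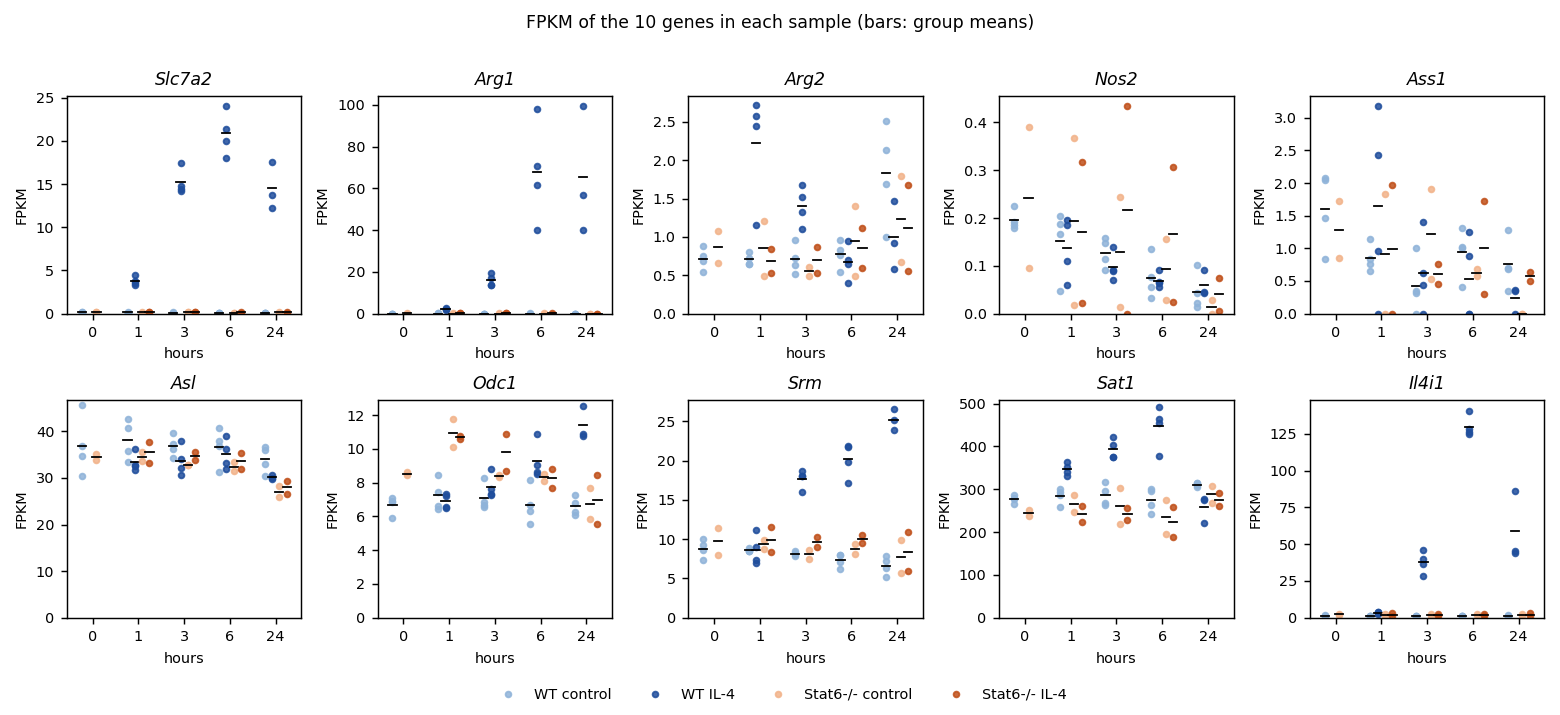
FPKM of each gene in every sample against hours (0, 1, 3, 6 and 24, not to scale), for WT and Stat6-/- cells with IL-4 or left as controls; points are samples and black bars group means. Slc7a2, Arg1 and Il4i1 separate from their controls in WT at every time, where Arg1 reaches 99.3 FPKM, and Srm does so from 3 h. For Slc7a2, Arg1 and Il4i1 the Stat6-/- samples with and without IL-4 lie close together on the scale set by the WT values.

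Arginine import was described by Slc7a2 (mm10 chromosome 8, 40862367 to 40922070, plus strand). In 20 WT controls its level ran from 0.0741 to 0.191 FPKM with a median of 0.109. With IL-4 in WT the 4 samples had 3.34, 3.80, 3.60 and 4.43 FPKM at 1 h. At 3 h they had 14.4, 17.4, 14.8 and 14.2 FPKM. Every treated sample was thus far above every control already at the earliest time. After 6 h they reached 21.4, 24.0, 20.0 and 18.1 FPKM, and at 24 h replicates 2 to 4 had 17.6, 13.7 and 12.3 FPKM. The log2 change was 2.08 ± 0.07 (SE) at 1 h (limma, adjusted p = 4.91e-23), 3.86 ± 0.07 after 3 h, 4.30 ± 0.07 after 6 h and 3.80 ± 0.08 at 24 h. The mean ratio of IL-4 to control was 29.2-fold at 1 h and 200-fold at 6 h. The response fell by 0.50 ± 0.11 on the log2 scale between 6 and 24 h (limma, adjusted p = 0.00049), although with a pseudocount of 0.1 neither this change nor the growth from 3 to 6 h passed the test (adjusted p = 0.0867 and 0.367).

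Of the arginases, Arg1 (chromosome 10, 24915207 to 24927470, minus strand), the cytosolic form, went from near absence to one of the more abundant of the 10 transcripts. In WT controls it was at most 0.0635 FPKM and was listed at 0 in 8 of 20 samples, all 4 controls at 3 h included. Its low values were whole multiples of 1 fragment, 0.019 FPKM at the median depth (18 of 18 values within 0.15 of a whole number). Controls of both genotypes thus held 0 to 7 fragments, the highest being a Stat6-/- control at 0 h with 0.123 FPKM. With IL-4 the WT samples had 1.90, 2.60, 2.17 and 2.29 FPKM at 1 h. They had 17.0, 19.6, 13.7 and 13.8 FPKM at 3 h. No treated sample overlapped a control, and the level grew at each step up to 6 h. Values after 6 h were 71.0, 97.8, 61.8 and 39.8 FPKM, and at 24 h replicates 2 to 4 had 99.3, 56.8 and 40.2 FPKM. The log2 change was 1.65 ± 0.16 at 1 h (limma, adjusted p = 3.42e-10), 4.07 ± 0.16 after 3 h, 5.98 ± 0.16 after 6 h and 5.93 ± 0.18 at 24 h, which understates the change of a gene with so few control fragments. The response grew from 1 to 3 h (by 2.42 ± 0.23, adjusted p = 3.9e-10) and from 3 to 6 h (by 1.91 ± 0.23, adjusted p = 7.24e-07), and its difference between 6 and 24 h was -0.05 (adjusted p = 0.911). Replicate 2 was the highest WT sample at all 4 IL-4 times.

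Arg2 (chromosome 12, 79130788 to 79156301, plus strand), the mitochondrial arginase, took another course. WT controls up to 6 h had 0.516 to 0.961 FPKM. With IL-4 for 1 h the samples had 2.72, 1.15, 2.58 and 2.44 FPKM against 0.807, 0.642, 0.729 and 0.649 FPKM in the controls, with replicate 2 lowest in both groups. The increase of 0.89 ± 0.19 (limma, adjusted p = 0.000682) fell short of 2-fold on the log2(FPKM + 1) scale, while the ratio of mean FPKM was 3.14-fold. At 3 h the samples had 1.67, 1.10, 1.32 and 1.52 FPKM, all above the controls, and the change of 0.49 ± 0.19 was close to the threshold (adjusted p = 0.043). Values at 6 h of 0.395 to 0.943 FPKM overlapped the controls. In controls Arg2 rose by 0.69 ± 0.19 from 0 to 24 h (adjusted p = 0.00853), to 1.69, 0.997, 2.51 and 2.14 FPKM. With IL-4 for 24 h the 3 samples had 0.583, 0.925 and 1.47 FPKM and the change was -0.50 ± 0.20 (adjusted p = 0.0344). Both of these later changes were sensitive to single samples. The 3 h call was lost on leaving out control replicate 1, 2 or 4 or IL-4 replicate 1, 3 or 4 (adjusted p from 0.0644 to 0.116), and the 24 h call on leaving out control replicate 3 or 4 or IL-4 replicate 2 or 3 (adjusted p from 0.0802 to 0.204). The 3′ end of Arg2 overlaps Vti1b on the opposite strand, which lay at 37.6 to 54.7 FPKM, and the libraries did not keep strand, so reads from the overlap cannot be assigned to a gene.

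Arg1 and Arg2 can be set side by side because FPKM is scaled to transcript length. In WT with IL-4 for 1 h the FPKM ratio of Arg1 to Arg2 was 0.697, 2.26, 0.843 and 0.939. It was 10.2, 17.8, 10.3 and 9.05 at 3 h. Arg1 was therefore level with Arg2 at 1 h and above it in every treated sample later. By 6 h the ratio was 110.3, 247.8, 89.2 and 42.2, and at 24 h it was 170.3, 61.3 and 27.4.

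Nos2 (chromosome 11, 78920859 to 78960124, plus strand) did not reach 0.5 FPKM in any sample. Its highest value was 0.226 FPKM in WT controls, 0.196 FPKM in WT with IL-4 and 0.434 FPKM in Stat6-/- cells. The values were again whole multiples of 1 fragment (30 of 30 within 0.15), 0.00635 FPKM at the median depth, and corresponded to at most 75 fragments. Nos2 was therefore not tested with the other genes. Without the filter its WT changes on the log2(FPKM + 1) scale lay between -0.04 and 0.02 with limma's adjusted p of 0.932 to 1. At such levels even a 2-fold change is small on this scale, so the test could hardly resolve one. The WT ratio of mean FPKM, IL-4 to control, ran from 0.763 at 3 h to 1.32 at 24 h, and the groups overlapped at each time. Replicate 2 exceeded replicate 1 in 9 of 9 Stat6-/- groups.

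Of the enzymes that regenerate arginine, Asl (chromosome 5, 130011503 to 130024331, minus strand) was abundant and nearly level, at 25.9 to 45.7 FPKM over all 53 samples. In WT with IL-4 for 24 h it was at 30.1 ± 0.523 FPKM (SD, n = 3), against 34.1 ± 2.87 FPKM in controls (n = 4). The 95% interval of the log2 change was -0.36 to 0.02 at 24 h and -0.24 to 0.12 at 6 h, so a change as large as 2-fold lay outside both intervals. Ass1 (chromosome 2, 31470270 to 31520670, plus strand) ranged up to 3.18 FPKM but was below 0.01 FPKM in 10 samples. The tables list a second locus, Gm5424, within its bounds, and 55.3% of the 50-base stretches of the Ass1 transcript also occur in Gm5424, so that reads could be split between the names. Summed over both loci, an alternative chosen after the values were seen, WT controls had 0.414 to 4.02 FPKM and WT samples with IL-4 0.405 to 3.18 FPKM, which overlapped. The Ass1 values are thus uncertain, and its intervals are wide (-1.28 to 0.30 at 24 h).

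**Figure D2:**
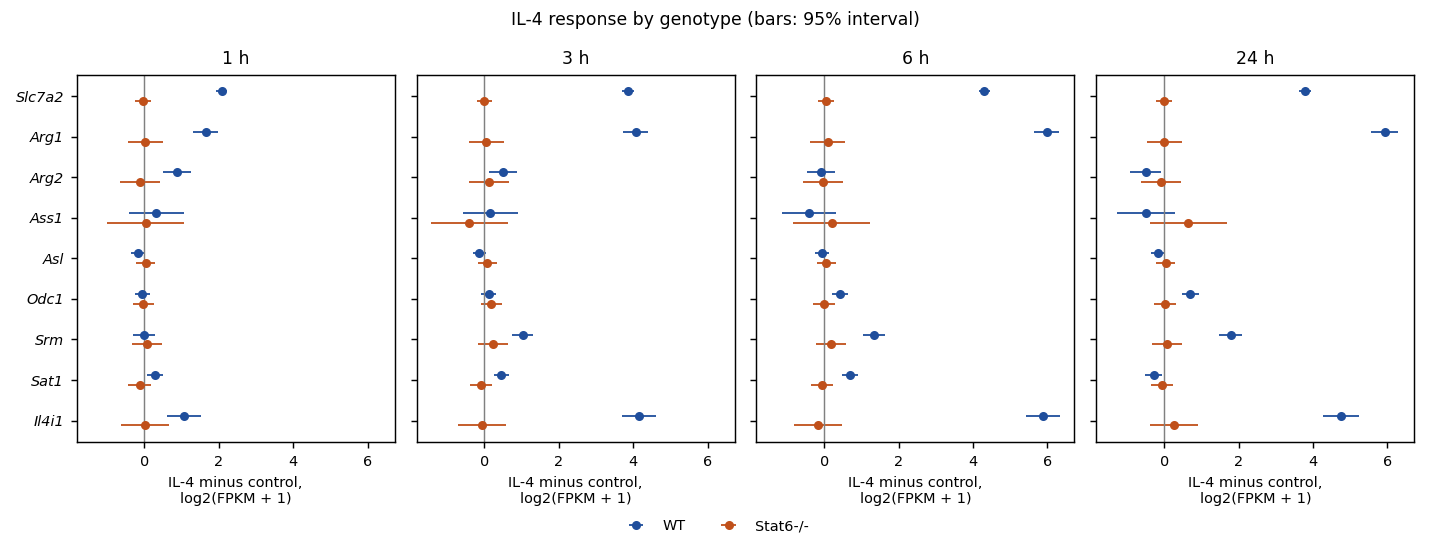
Log2 change from IL-4 on the log2(FPKM + 1) scale for the 9 tested genes, by hours of IL-4, in WT and Stat6-/- cells; points are limma estimates and bars 95% intervals. Arg1, Slc7a2 and Il4i1 reach 4.30 to 5.98 in WT at 6 h, and the interval of every Stat6-/- estimate includes 0.

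The polyamine genes moved at different times. Srm (chromosome 4, 148591513 to 148594619, plus strand) did not respond at 1 h, when the samples with IL-4 had 6.99, 7.36, 9.0 and 11.1 FPKM against 8.54, 8.46, 8.47 and 8.83 FPKM. At 3 h they had 18.6, 16.02, 18.1 and 18.05 FPKM against 7.86, 8.43, 8.25 and 8.11 FPKM. The groups no longer overlapped, and stayed apart afterwards. After 6 h they had 17.1, 19.8, 21.8 and 21.9 FPKM, and at 24 h 26.6, 25.2 and 23.9 FPKM against 6.30, 5.13, 7.24 and 7.86 FPKM in controls. The log2 change was 1.03 ± 0.14 at 3 h (limma, adjusted p = 1.88e-07), 1.34 ± 0.14 at 6 h and 1.79 ± 0.15 at 24 h, when the mean ratio was 3.80-fold. The growth of the response from 1 to 3 h passed the test (1.04 ± 0.20, adjusted p = 0.000259), and the later steps did not. The changes at 3 h and from 1 to 3 h lay near the 2-fold limit. The former was 0.99 with quantile normalization, and the latter was 0.96 without 1 h IL-4 replicate 1 and 0.98 without replicate 2, each still past the test but no longer called.

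Odc1 (chromosome 12, 17544873 to 17551502, plus strand) rose later and less. WT controls had 5.54 to 8.48 FPKM, and the 1 h and 3 h IL-4 samples overlapped them. At 6 h the IL-4 samples had 8.52, 10.9, 8.60 and 9.06 FPKM against 5.54, 8.14, 6.31 and 6.66 FPKM. At 24 h they had 12.5, 10.9 and 10.8 FPKM against 6.10, 7.29, 6.80 and 6.27 FPKM. Treated samples lay above all controls at both of these times, and replicate 2 was the highest of the IL-4 samples at all 4 times. The log2 change was 0.43 ± 0.10 at 6 h (limma, adjusted p = 0.000778) and 0.70 ± 0.11 at 24 h (adjusted p = 1.46e-06), below the 2-fold limit. As 42.2% of the 50-base stretches of the Odc1 transcript occur in 16 other genes, among them the predicted gene Gm7993, its level is uncertain.

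Sat1 (chromosome X, 155213139 to 155216409, minus strand) was the most abundant of the 10 genes in every group and changed direction over time. At 3 h WT samples with IL-4 had 376, 375, 422 and 402 FPKM against 268, 262, 317 and 297 FPKM in controls. At 6 h they had 454, 378, 465 and 493 FPKM against 263, 241, 299.9 and 297 FPKM. The changes of 0.46 ± 0.10 (limma, adjusted p = 0.000598) and 0.70 ± 0.10 (adjusted p = 8.2e-07) were increases without overlap of the groups. At 1 h the change was 0.29 ± 0.10 (adjusted p = 0.0846), although all 4 samples, at 331 to 364 FPKM, exceeded the highest control, at 300.4 FPKM. At 24 h the order was turned, with 221, 276 and 276 FPKM against 304, 314, 309 and 315 FPKM. That decrease of 0.28 ± 0.11 (adjusted p = 0.037) was lost without IL-4 replicate 2 (adjusted p = 0.26) or without control replicate 2, 3 or 4 (adjusted p from 0.0548 to 0.0629). The fall of the response from 6 to 24 h, by 0.97 ± 0.15 on the log2 scale, was larger than the error (adjusted p = 5.18e-06).

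Il4i1 (chromosome 7, 44836288 to 44840809, plus strand) showed a sharp maximum at 6 h. WT controls had 0.588 to 1.98 FPKM. With IL-4 the samples had 3.54, 3.84, 4.06 and 2.47 FPKM at 1 h. They had 39.9, 28.5, 36.6 and 46.3 FPKM at 3 h. All were above the highest control of their time. The 6 h values were 128, 141, 125 and 126 FPKM, and at 24 h replicates 2 to 4 had 86.4, 45.3 and 44.3 FPKM. The log2 change was 1.06 ± 0.22 at 1 h (limma, adjusted p = 0.000642), 4.16 ± 0.22 after 3 h, 5.89 ± 0.22 after 6 h and 4.76 ± 0.24 at 24 h. The mean ratio at 6 h was 107-fold. The response grew by 3.09 ± 0.32 from 1 to 3 h and by 1.73 ± 0.32 from 3 to 6 h, and fell by 1.13 ± 0.33 on the log2 scale from 6 to 24 h (adjusted p = 0.00835). With a pseudocount of 0.1 that decline was 1.05 in size and no longer passed the test (adjusted p = 0.0946), while without 24 h control replicate 1 or IL-4 replicate 3 or 4 it was below 2-fold, at 0.97 to 0.98 in size on the log2 scale, and no longer called. The read-through locus Nup62-il4i1, which covers Il4i1, had at most 0.354 FPKM. Tbc1d17 meets the end of Il4i1 on the opposite strand in the tables and had 13.0 to 26.5 FPKM in all samples. In GENCODE M21, 78.2% of the 50-base stretches of the Il4i1 transcript occur in transcripts of other genes, mainly of Tbc1d17, so that reads could be split between the names without strand and the Il4i1 level is uncertain, above all in controls.

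The change of the WT response between successive times was tested for each gene. From 1 to 3 h 4 of the 9 genes were called and 4 passed, namely Arg1, Slc7a2, Srm and Il4i1, beside 1.61% and 11.1% of all loci. From 3 to 6 h Arg1 and Il4i1 were called and Slc7a2 passed as well (beside 0.449% and 3.31%). From 6 to 24 h Il4i1 was called and Slc7a2 and Sat1 also passed, all 3 declining (beside 6.06% and 27.8%). As a share of the highest of its 4 WT IL-4 means, Slc7a2 had reached 18.2% at 1 h and 72.9% at 3 h. Arg1 had reached 3.32% and 23.7%, and Il4i1 2.68% and 29.1%. At 24 h the means were at 96.8% for Arg1, 69.6% for Slc7a2, 45.2% for Il4i1 and 57.6% for Sat1, while Srm and Odc1 had their highest mean then. These shares are descriptions without a test between genes.

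**Figure D3:**
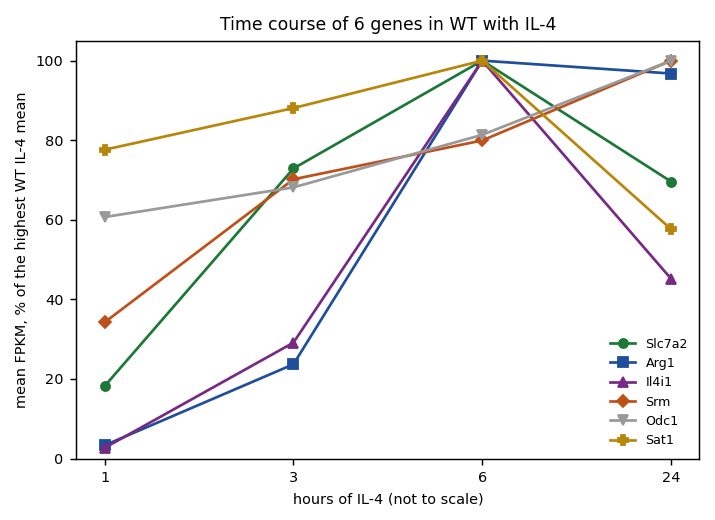
Mean FPKM of 6 genes in WT cells with IL-4, as a percentage of each gene's highest mean over 1, 3, 6 and 24 h (4 samples per mean, 3 at 24 h). Slc7a2 is at 72.9% by 3 h when Arg1 is at 23.7%, and Il4i1 falls to 45.2% by 24 h while Srm and Odc1 are highest there.

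The order of levels differed with treatment. In WT controls at 0 h the means were 277 FPKM for Sat1, 36.9 for Asl, 8.81 for Srm and 6.69 for Odc1, with the other 6 genes below 2 FPKM. With IL-4 for 6 h they were 447 FPKM for Sat1, 129.9 for Il4i1, 67.6 for Arg1, 35.1 for Asl, 20.9 for Slc7a2, 20.1 for Srm and 9.27 for Odc1. The samples of Slc7a2 (18.1 to 24.0 FPKM) and Srm (17.1 to 21.9 FPKM) overlapped, as did none of the other neighbours among these 7. Arg2, Ass1 and Nos2 were below 1 FPKM on average with IL-4 for 6 h.

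In Stat6-/- cells no change of the 9 tested genes with IL-4 passed the test. At 1, 3, 6 and 24 h 0 genes passed limma's test, as did 0% of all loci, while 37 to 131 of the loci, and none of the 9 genes, had an unadjusted p under 0.05. Tukey's adjustment per gene called 3 loci at 1 h and 1 at 3 h, none of them among the 10 genes, and 0 later. Arg1 ranged from 0 to 0.203 FPKM over the 18 Stat6-/- samples. At 6 h it was listed at 0 and 0.203 FPKM with IL-4 and at 0.0512 and 0 FPKM in controls. Slc7a2 ranged from 0.0846 to 0.219 FPKM and Il4i1 from 0.926 to 2.94 FPKM over all Stat6-/- samples. None of these samples reached the 1 h IL-4 values of Arg1 or Slc7a2 in WT. Il4i1 in Stat6-/- replicate 2 exceeded replicate 1 in 9 of 9 groups and 6 of its values, at 2.59 to 2.94 FPKM, lay above the lowest WT sample with IL-4, at 2.47 FPKM. The 95% interval of the Stat6-/- response at 6 h was -0.37 to 0.57 for Arg1, -0.16 to 0.26 for Slc7a2, -0.80 to 0.48 for Il4i1 and -0.23 to 0.58 for Srm. Changes within these intervals were not resolved with 2 samples a group. Arg1 and Slc7a2 lay so far below 1 FPKM that a 2-fold change in FPKM would also fall within their intervals. Srm in Stat6-/- cells had 10.3 and 8.98 FPKM with IL-4 for 3 h against 8.63 and 7.52 FPKM, and 10.6 and 9.45 FPKM at 6 h against 9.33 and 8.17 FPKM. The groups did not overlap at either time. Odc1 and Asl at 3 h and Ass1 at 24 h were likewise higher with IL-4 without overlap. These differences did not pass the test, and the share of all loci without overlap was not counted. With 2 samples a group, unchanged genes can also separate, so no rise is read from these values. For Ass1 both controls were below 0.01 FPKM. Summed with Gm5424, its IL-4 samples had 0.584 and 0.633 FPKM and overlapped the controls, at 0.374 and 0.786 FPKM.

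The difference of the responses between genotypes was tested directly. At 1 h 2 of the 9 genes, Arg1 and Slc7a2, were called, and the same 2 passed, beside 1.25% and 3.36% of all loci. For Slc7a2 the WT response exceeded that of Stat6-/- by 2.11 ± 0.13 (limma, adjusted p = 6.44e-15) and for Arg1 by 1.62 ± 0.28 (adjusted p = 0.000143). As with their WT changes, the p-values of Slc7a2 and Arg1 here and at later times only describe these genes. The Il4i1 difference at 1 h, 1.05 ± 0.39, did not pass (adjusted p = 0.183). At 3 h Arg1, Slc7a2 and Il4i1 were called and Srm and Sat1 passed as well, 5 in all (beside 3.48% and 11.2%). At 6 h Arg1, Slc7a2, Il4i1 and Srm were called and Sat1 passed (beside 4.41% and 16.5%). The Il4i1 difference was then 6.05 ± 0.39 (adjusted p = 2.98e-15) and the Arg1 difference 5.88 ± 0.28 (adjusted p = 4.81e-19). At 24 h the same 4 genes were called and Odc1 passed (beside 6.85% and 27%), with 1.70 ± 0.25 for Srm (adjusted p = 2.3e-06). Every difference that passed had the larger response in WT.

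The smaller differences depended on single Stat6-/- libraries. That of Srm at 3 h (0.80 ± 0.24, limma, adjusted p = 0.0257) was lost without control replicate 1 (adjusted p = 0.14) or IL-4 replicate 2 (adjusted p = 0.131). That of Sat1 at 6 h (0.76 ± 0.18, adjusted p = 0.00214) was lost without the same libraries of its time (adjusted p = 0.0764 and 0.0647). At 3 h the Sat1 difference (0.55 ± 0.18, adjusted p = 0.0415) was lost without either of these Stat6-/- libraries or without WT control replicate 1 or 2 or WT IL-4 replicate 3 or 4 (adjusted p from 0.0639 to 0.423). That of Odc1 at 24 h (0.67 ± 0.18, adjusted p = 0.00486) was lost without control replicate 1 (adjusted p = 0.097) or IL-4 replicate 2 (adjusted p = 0.156). The Arg2 difference did not pass at any time (adjusted p of 0.0925 at 1 h).

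Few differences between untreated cells passed the test. In Stat6-/- against WT controls, 1 gene passed at 1 h, beside 1.54% of all loci, and 0 passed at 0, 3, 6 and 24 h, beside 2.18%, 0.772%, 0.413% and 0.108%. The 1 gene was Odc1, at 11.8 and 10.1 FPKM in Stat6-/- cells and 7.46, 8.48, 6.64 and 6.41 FPKM in WT. Its difference of 0.54 ± 0.13 (limma, adjusted p = 0.0173) was lost without either Stat6-/- replicate or without WT replicate 3 or 4 (adjusted p from 0.0562 to 0.177). In WT controls 0 genes passed at 1, 3 and 6 h against 0 h, beside 2%, 0.144% and 0.135% of the loci, and Arg2 passed at 24 h, beside 17.2%. In Stat6-/- controls 0 genes passed at 1, 3, 6 and 24 h against 0 h, beside 0.0807%, 0%, 0% and 0.718%. At an unadjusted p under 0.05, 3 tests of the 9 genes over the 4 WT times and 4 over the Stat6-/- times would have passed, where 722 to 3471 and 267 to 1643 of the 11146 loci did so at a single time. For the genotypes it was 5 tests over the 5 times, beside 628 to 1564 loci.

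The loci whose group means of log2(FPKM + 1) over the 18 groups were most like those of the 4 called genes were, for Arg1, Hebp2, Cldn11 and Tmem26 (Pearson r of 0.996, 0.991 and 0.989). For Slc7a2 they were Tmem26, Cdh1 and Tmem126b (0.996, 0.992 and 0.988). For Il4i1 they were Ap2m1, Cldn11 and Pdcd1lg2 (0.993, 0.992 and 0.988), and for Srm Grwd1, Dkc1 and Nop2 (0.982, 0.982 and 0.980). Among the members, Arg1 and Il4i1 had r = 0.983, Arg1 and Slc7a2 0.977 and Srm and Arg1 0.936, whereas Arg2 and Arg1 had 0.128. All these values rest on the same 53 libraries and carry no test.

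Other genes of the pathways were counted from 3 lists. Of 27 further genes of arginine, urea, proline and nitric oxide metabolism, 16 were tested. In WT with IL-4, 1 passed after 1 h, 3 after 3 h, 7 after 6 h and 8 after 24 h, and all of these rose except 2 of the last. With 9.39%, 28.9%, 41.2% and 55% of all loci passing at these times, these counts were near the background or below it. Of 19 further polyamine genes 17 were tested: 0 passed at 1 h, 4 rose and 3 fell at 3 h, 3 rose and 4 fell at 6 h, and 6 rose and 5 fell at 24 h. Of 40 further genes of amino acid catabolism 22 were tested: 1 rose and 1 fell at 1 h, 3 rose and 4 fell at 3 h, 4 rose and 3 fell at 6 h, and 2 rose and 6 fell at 24 h, again beside the shares of all loci above. The median change at 24 h was 0.18, 0.15 and -0.06 for the 3 lists, beside -0.07 for all loci. In Stat6-/- cells none of these genes passed. Called in WT were 0, 2, 2 and 4 of the 16 arginine genes at 1, 3, 6 and 24 h, 1 of the 17 polyamine genes at 24 h only, and 0, 2, 2 and 1 of the 22 catabolism genes, beside 1.49%, 3.88%, 5.54% and 8.5% of all loci. These make up 8 different genes.

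The called arginine genes included another importer and enzymes that draw on arginine and proline precursors. Gatm, which makes the creatine precursor guanidinoacetate from arginine, went from 19.1 ± 1.48 to 100.8 ± 21.9 FPKM (SD, n = 4) at 6 h, a log2 change of 2.32 ± 0.27 (limma, adjusted p = 4.61e-09). Azin2, listed as Adc, which encodes an antizyme inhibitor that acts on ornithine decarboxylase, rose by 1.77 ± 0.11 at 6 h (adjusted p = 4.66e-16). Both were below that change again at 24 h, at 1.42 ± 0.29 and 0.71 ± 0.12. Slc7a1, the widely expressed cationic amino acid transporter, rose from 1.35 ± 0.235 to 5.05 ± 2.2 FPKM at 24 h (1.31 ± 0.15, adjusted p = 2.69e-09). Aldh18a1, which makes the proline precursor pyrroline-5-carboxylate, rose by 1.12 ± 0.15 at 24 h (adjusted p = 4.79e-08). Ddah2, of a family that degrades methylated arginines, fell from 4.81 ± 0.518 to 1.47 ± 0.0538 FPKM at 24 h (-1.23 ± 0.13, adjusted p = 4.7e-10).

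Among polyamine genes Eif5a, whose protein carries hypusine made from spermidine, rose from 194 ± 23.7 to 579 ± 34.9 FPKM at 24 h (1.58 ± 0.14, limma, adjusted p = 8.34e-12). Of the tryptophan-kynurenine enzymes, Kmo turned direction. It rose by 2.10 ± 0.18 at 3 h (adjusted p = 1.27e-12), from 1.34 to 9.18 FPKM, and fell by 1.10 ± 0.19 on the log2 scale at 24 h (adjusted p = 7.95e-06), from 2.84 to 0.795 FPKM. Kynu rose by 1.29 ± 0.10 at 3 h and by 1.77 ± 0.10 at 6 h (adjusted p = 2.29e-18) and was at 0.16 ± 0.10 at 24 h (adjusted p = 0.198). All 8 of these genes had a called difference between genotypes at 1 or more times. The shares of all loci with such a call were 1.25%, 3.48%, 4.41% and 6.85% at 1, 3, 6 and 24 h. As the genes were chosen for a call in WT and no locus passed in Stat6-/- cells, this count only describes them.

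**Figure D4:**
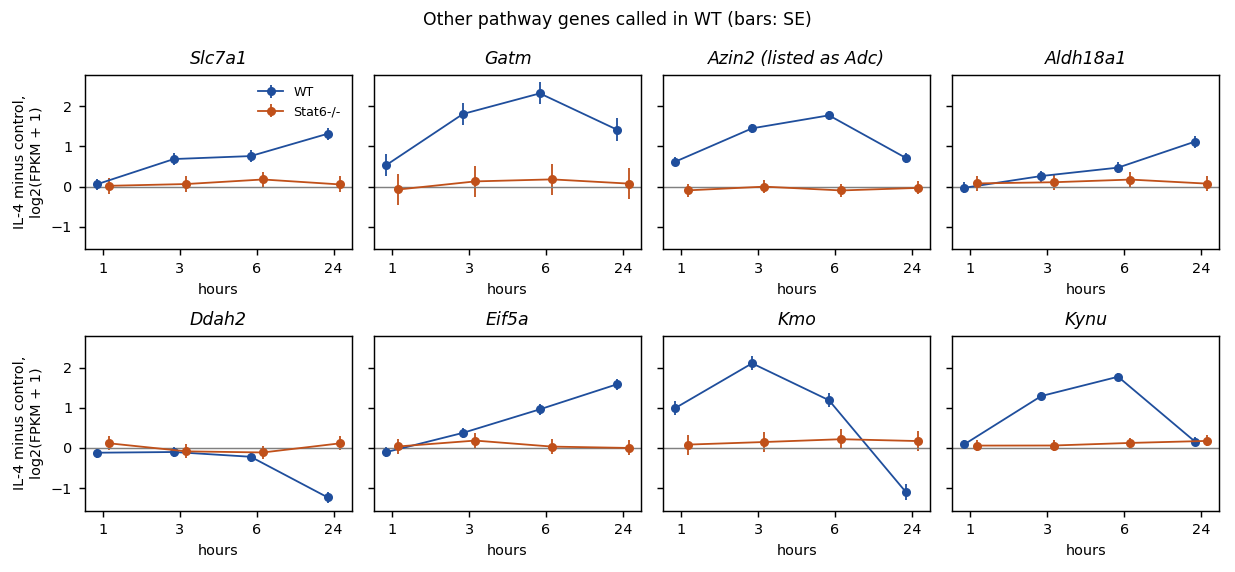
Log2 change from IL-4 on the log2(FPKM + 1) scale against hours of IL-4 for the 8 further pathway genes called in WT, in WT and Stat6-/- cells; points are limma estimates and bars their SE. Gatm peaks at 2.32 at 6 h, Eif5a reaches 1.58 at 24 h, and Kmo turns from 2.10 at 3 h to -1.10 at 24 h.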

How the data were processed

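Polyadenylated RNA of 53 BMDM samples was sequenced. Per the submitters' processing notes the authors used TopHat2 2.0.7, Cufflinks 2.0.2 and mm10, and deposited an FPKM table for each sample (fragments per kilobase, relative to all mapped fragments). The gene annotation is not given in the sources used here. FPKM is relative within a sample, so a change of abundant genes shifts all others, and no counts or absolute depths were given. The 10 genes and the pathway lists were chosen with earlier results of these data known. WT replicate 1 with IL-4 for 24 h is not analysed here.

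Tables were joined on locus and name. Estimates below 1e-06 FPKM (4316 values) were set to 0. Loci of at least 1 FPKM in 1 or more samples were tested as log2(FPKM + 1) in limma 3.58.1 (R 4.3.3), with 1 mean per group and a variance trend over all 53 samples (35 residual degrees of freedom). P-values were two-sided and were adjusted by Benjamini-Hochberg over the 11146 loci within each of 28 comparisons. The study describes its WT samples as individual animals and gives n = 2 for Stat6-/- cells without saying whether these were separate animals, so their p-values may measure technical spread. The fit was tested on simulated data. Named genes were the 10 genes and list genes called in WT or with a called difference between genotypes. Overlapping genes were found by 50-base matches to GENCODE M21 transcripts. Alternatives were another pseudocount, other filters, quantile normalization, a replicate block, only the samples compared, Tukey's adjustment, no fold limit and each sample left out.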

Additional observations from a re-analysis of the deposited data

Results flagged for a closer look

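Limma's test of the difference in response to IL-4 between genotypes called 13 instances, with the same genes recurring between times. Of all loci 1.25%, 3.48%, 4.41% and 6.85% were called at 1, 3, 6 and 24 h. The instances of Arg1 and Slc7a2 only describe these genes, which entered the test only through treated WT samples. For Arg1 the WT response was larger by 1.62, 4.02, 5.88 and 5.92 on the log2(FPKM + 1) scale at 1, 3, 6 and 24 h, and for Slc7a2 by 2.11, 3.86, 4.25 and 3.80. For Il4i1 it was larger by 4.21, 6.05 and 4.50 at 3, 6 and 24 h, and for Srm by 1.16 and 1.70 at 6 and 24 h. In the WT groups of 4 samples, none of 57 sets of values with a highest sample of at least 1 FPKM held a sample that Dixon's test set apart.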

How the results depend on the processing

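Of the 52 changes of single genes that passed the test, 936 of 985 refits kept the side of the threshold, 49 lost it and 0 reversed. The 30 losses on leaving out 1 sample concern Arg2, Sat1, Odc1 and Srm and are given with those genes. Counts of called genes moved as follows. With no limit on the fold, 7 genes passed in WT at 24 h, 5 in the genotype difference at 3 h, 3 in the WT change from 6 to 24 h, 1 in WT controls at 24 h against 0 h and 1 in Stat6-/- against WT controls at 1 h. With a pseudocount of 0.1 the change from 6 to 24 h gave 0 and WT controls at 24 h gave 1 (Arg2), and with quantile normalization the former gave 2. With quantile normalization WT at 3 h gave 3, without Srm, and leaving out 1 sample gave 3 to 4 for the change from 1 to 3 h. Leaving out 1 sample gave 0 to 2 for the change from 6 to 24 h, where Sat1 and Il4i1 lie near the 2-fold limit. With the Tukey adjustment the 24 h and 3 h Arg2 and the 24 h Sat1 changes were lost (p of 0.613, 0.516 and 0.606). Without a filter these 3 were lost too (adjusted p of 0.0528, 0.0679 and 0.0529), as was the genotype difference of Sat1 at 3 h (0.0602). With only the samples compared, 5 were lost, namely Arg2 at 24 h (0.0745), the genotype differences of Sat1 at 3 and 6 h (0.0919 and 0.0657) and of Odc1 at 24 h (0.0652), and Odc1 in untreated cells at 1 h (0.255). Quantile normalization lost Arg2 at 3 and 24 h (0.0537 and 0.142) and the Sat1 difference at 3 h (0.105). A pseudocount of 0.1 lost Arg2 at 24 h (0.052), besides the Slc7a2 and Il4i1 steps given with those genes.

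A replicate block gave 3, 4, 4 and 4 called genes in WT at 1, 3, 6 and 24 h, as without it, and 1 in Stat6-/- controls at 24 h against 0 h, Ass1, whose estimates are uncertain; all 51 changes it could refit stayed past the threshold. Same-numbered IL-4 and control samples had deviations correlated by 0.0265 to 0.561 in WT and 0.791 to 0.9 in Stat6-/-, and 29 of 35 WT and 18 of 18 Stat6-/- samples correlated best with their own number. With 2 samples a group, the Stat6-/- deviations are mirror images. The 18 samples therefore count as only 9 groups, and the 2 ranges of correlation cannot be compared. With the block 1 to 4 loci, and 0 of the 9 genes, passed for IL-4 in Stat6-/- cells, and none of the 9 had an unadjusted p under 0.05. The tables give no counts, so a value of Nos2 or a control value of Arg1 rests on few fragments.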
